A study of Mus musculus with 64 samples.

Results

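The genes described here are 39 type I interferon-stimulated genes of mouse colon. They were chosen by symbol from what is known of the interferon response, and all 39 were among the 23990 gene symbols found in every one of the 64 libraries. Mucosa of C57BL/6 mice was sequenced after a pinch biopsy, a small wound taken through the colon lining, or after a sham procedure. In the time course the wound bed was collected 1 h (n = 6), 6 h (n = 5), 3 d (n = 6) and 6 d (n = 5) after biopsy, against sham mucosa at 1 h (n = 4), 6 h (n = 5), 3 d (n = 5) and 6 d (n = 5). A second cohort, all collected at 6 h per the labels, held biopsies (n = 5) and shams (n = 6) titled abx, and biopsies (n = 6) and shams (n = 6) titled veh. In that cohort the titles and the condition field contradict each other, since the abx-titled libraries carry the condition control and the veh-titled ones carry antibiotic treatment. The arms are therefore named by title, and no direction for antibiotics was drawn. The labels give no age or sex and do not state that libraries came from separate mice, so what the p-values measure is the spread from library to library, which may be technical.

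Type I interferons are secreted cytokines of the alpha and beta families that signal through the receptor pair Ifnar1 and Ifnar2. The receptor acts through the kinases Jak1 and Tyk2, which phosphorylate Stat2, and Stat2 joins Irf9 in a complex that binds interferon-stimulated response elements in promoters. In the gut, interferon-stimulated genes carry antiviral and RNA-sensing proteins in epithelium and in immune cells, and several of the same genes also answer to type III interferon in epithelium and to interferon gamma. The 39 genes fall into 3 transcription factors, 5 genes of the ISG15 conjugation system, 3 IFIT genes, 5 genes of the OAS family, 4 genes of the Mx and Rsad2 group, 7 nucleic acid sensors and effectors, 4 PARP genes with their partner, and 8 others.

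Levels are in FPKM, which is scaled for gene length and library total, as the authors deposited them. Time-course libraries summed to between 414318 and 522098 FPKM and those of the second cohort to between 229752 and 266646 FPKM, so the cohorts were tested apart and levels are not compared between them. Between 11351 and 12791 genes reached 1 FPKM per library in the time course, and between 10442 and 11336 in the arms. Read totals were not at hand, and relative depth read from the lowest values spanned 1.49-fold and 1.58-fold within the cohorts. Epithelial markers were present in every library, as the tissue label has it, with summed levels of 6829 FPKM or more in the time course and 4818 FPKM or more in the arms. In tissue RNA, fewer cells of a type and less RNA per cell cannot be told apart. Changes are differences of log2(FPKM + 1), which understate the change of low genes, and a gene was called at an adjusted p under 0.05 by limma, adjusted over all genes tested. The median change of all genes was −0.18 at 1 h, −0.12 at 6 h, 0.09 at 3 d and 0.11 at 6 d, and 0.01, 0.00, −0.01 and 0.00 after median-of-ratios scaling, so changes of the members are read against these medians. All 39 genes passed the low-value filter of 1 FPKM in 4 libraries in both cohorts. Without the 6 h biopsies and the 6 d shams 38 would have passed in the time course (not Mx2), and without the biopsies 30 would have passed in the arms.

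The mean of log2(FPKM + 1) over the 39 genes was highest in the wound bed at 6 h and next highest in sham mucosa at 6 d. It averaged 2.28 in biopsies and 2.36 in shams at 1 h, 4.62 in biopsies and 2.55 in shams at 6 h, 2.85 in biopsies and 2.49 in shams at 3 d, and 3.41 in biopsies and 4.14 in shams at 6 d. Single libraries spanned 4.31 to 4.84 in the 6 h biopsies and 3.81 to 4.68 in the 6 d shams, and all the other time-course libraries lay below both. By group mean FPKM, the 6 h biopsies were the highest of the 8 groups for 22 genes and the 6 d shams for the remaining 17. The 6 d biopsies came next after these for 31 genes.

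**Figure D1:**
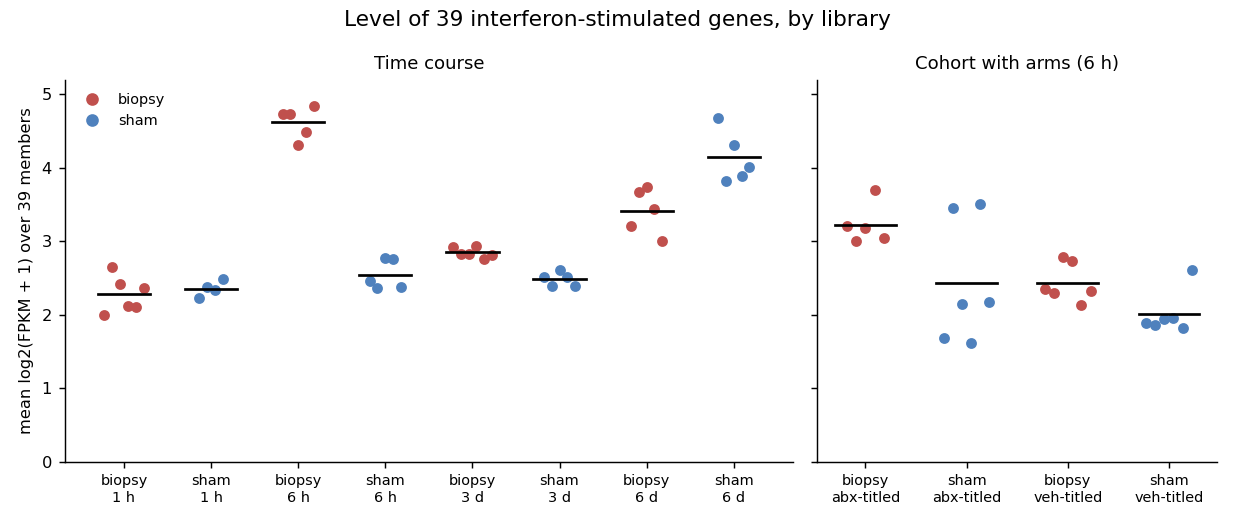
Mean of log2(FPKM + 1) over the 39 interferon-stimulated genes (vertical axis) for each library, by group, with biopsy left of sham at each time and in each titled arm; points are libraries and lines are group means. The 6 h biopsies (4.31 to 4.84) and the 6 d shams (3.81 to 4.68) stand above the other time-course groups.

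At 1 h 11 of the 39 genes differed between wound bed and sham. Rsad2 and Trim25 were higher in biopsies, and 9 genes were lower, among them Stat2, Dtx3l, Parp14 and Ddx58. Of all genes, 9.38% were called higher and 45% lower in this comparison, and the median change of all genes was −0.18, against −0.13 for the 39. The share of higher genes among all calls was 17.3%, and it was 50.4% after median-of-ratios scaling and 37.8% after quantile normalization, so the 9 lower calls depend on the scaling. Only Stat2 and Dtx3l stayed lower under both, where 20.6% and 25.4% of all genes were called lower. The count of lower calls was 5 without biopsy 5 and 4 without sham 5. In the same libraries monocyte and macrophage markers summed to 190 to 308 FPKM in biopsies and 336 to 492 FPKM in shams, neutrophil markers to 17.9 to 109 FPKM in biopsies and 1.93 to 3.33 FPKM in shams, and red blood cell genes to 832 to 6065 FPKM in biopsies and 32.1 to 140 FPKM in shams. Their part in the changes was not tested.

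Rsad2 encodes viperin, an antiviral enzyme. Its level was 0.929 FPKM at the lowest, 1.33 FPKM at the median and 2.03 FPKM at the highest in the 6 biopsies at 1 h, against 0.627, 0.551, 0.506 and 0.819 FPKM in the 4 shams. Every biopsy lay above every sham, and the change was 0.57 ± 0.23 (SE; limma, adjusted p = 0.032), a call that was lost in 5 of 10 fits with 1 library left out (0.51 to 0.64). Trim25, a ubiquitin ligase that acts on the RNA sensor RIG-I, had 26.1 FPKM at the lowest and 34.5 FPKM at the highest in biopsies, against 25.9, 26.4, 18.5 and 17.3 FPKM in shams. The lowest biopsy lay within the sham range, and the change was 0.46 ± 0.09 (limma, adjusted p = 9.2e-05).

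Stat2, the subunit through which interferon receptors switch on these promoters, had 3.36, 3.86 and 5.19 FPKM at the lowest, median and highest in the 1 h biopsies, against 6.14, 6.79, 6.12 and 7.33 FPKM in shams. The groups did not overlap, and Stat2 fell by 0.60 ± 0.12 (limma, adjusted p = 6e-05). Dtx3l, the ubiquitin ligase that pairs with Parp9, had 1.58 FPKM at the lowest and 2.98 FPKM at the highest in biopsies, against 4.28, 4.66, 5.30 and 6.91 FPKM in shams. It fell by 0.91 ± 0.13 (limma, adjusted p = 3.5e-07). Trim25 and Dtx3l are given in full here, a choice made after their values were seen. Trim25 was the only gene of its role group called higher. In the group of Dtx3l, Parp14 was also called lower, but only Dtx3l stayed lower under both scalings. Isg15, the ubiquitin-like modifier of the response, had 3.13, 5.27 and 13.3 FPKM at the lowest, median and highest in biopsies, against 2.37, 3.74, 3.60 and 4.70 FPKM in shams. These ranges overlapped, and its change of 0.52 ± 0.34 did not pass (limma, adjusted p = 0.2).

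At 6 h nearly the whole set was higher in the wound bed. Of the 39 genes, 38 rose and none fell, with a median change of 2.08, against a median of −0.12 for all genes. Of all genes, 24.3% were called higher and 43.2% lower. Higher genes made up 36.0% of all calls, or 50.8% after median-of-ratios scaling. Under that scaling and under quantile normalization 38 of the 39 were called higher, against 32.7% and 26.5% of all genes. The exception was Uba7, the enzyme that activates Isg15 for conjugation, which had 21.1, 19.3, 12.1, 13.4 and 22.3 FPKM in biopsies, against 15.7, 13.4, 16.5, 15.4 and 15.3 FPKM in shams. These ranges overlapped and the change was 0.16 ± 0.13 (limma, adjusted p = 0.26), a gene singled out after its values were seen.

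The IFIT genes, whose proteins bind viral RNA, had the highest median change of the role groups, 4.58, with all 3 higher. Ifit1 had 90.8, 71.3, 54.3, 76.9 and 81.2 FPKM in 6 h biopsies, against 0.926, 0.907, 2.70, 4.12 and 0.581 FPKM in shams. Every biopsy stood more than an order of magnitude above every sham, and the change was 4.87 ± 0.32 (limma, adjusted p = 3.8e-15). Ifit3 averaged 119 ± 31.1 FPKM in biopsies and 3.97 ± 1.18 FPKM in shams (SD, n = 5 each), a change of 4.58 ± 0.26. Ifit2 averaged 12.2 ± 3.44 FPKM in biopsies and 1.27 ± 0.133 FPKM in shams, a change of 2.49 ± 0.20. Mouse Ifit3 has near-identical copies in the genome, and how the authors' counting split shared reads is not given, so its level is uncertain.

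In the ISG15 system 4 of 5 genes rose. Isg15 had 191, 192, 113, 146 and 173 FPKM in biopsies, against 3.90, 2.80, 8.04, 7.04 and 2.48 FPKM in shams. The lowest biopsy was far above the highest sham, and the change was 4.89 ± 0.33 (limma, adjusted p = 9.2e-15). Usp18, the protease that removes Isg15 from proteins and also dampens the receptor, had 30.3, 29.2, 22.6, 30.0 and 36.0 FPKM in biopsies, against 0.766, 0.570, 1.03, 1.03 and 0.743 FPKM in shams. Its groups were also far apart, with a change of 4.06 ± 0.21 (limma, adjusted p = 5.4e-18). The ligases of the system changed less, Herc6 by 1.39 ± 0.14 and Trim25 by 0.95 ± 0.09.

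Rsad2 and its genomic neighbour Cmpk2, a nucleotide kinase, rose with the antiviral GTPases Mx1 and Mx2, all 4 called and with a median change of 2.71. Rsad2 had 60.9, 44.5, 22.3, 30.5 and 48.1 FPKM in biopsies, against 0.462, 0.411, 1.07, 0.775 and 0.380 FPKM in shams. The groups were widely separated, and the change was 4.64 ± 0.22 (limma, adjusted p = 4.6e-19). Mx1, which is known to be defective in the C57BL/6 strain, averaged 15.3 ± 7.88 FPKM in biopsies and 1.27 ± 0.325 FPKM in shams.

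All 5 OAS family genes, whose products include the synthetases that switch on the ribonuclease RNase L, rose with a median change of 2.59. Oasl1, in mouse an inhibitor of Irf7 translation, had 46.0, 56.9, 38.1, 45.7 and 60.3 FPKM in biopsies, against 11.4, 11.7, 14.5, 16.6 and 11.6 FPKM in shams. No biopsy came near the sham range, and the change was 1.83 ± 0.15 (limma, adjusted p = 4.5e-13). Oasl2 averaged 48.9 ± 7.13 FPKM in biopsies and 5.15 ± 3.31 FPKM in shams, a change of 3.17 ± 0.33. Oas3 averaged 7.88 ± 2.38 FPKM in biopsies and 0.462 ± 0.323 FPKM in shams, a change of 2.59 ± 0.24. Mouse Oas1a belongs to a cluster of near copies, so its change of 1.04 ± 0.12 is uncertain.

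The transcription factors rose by less, all 3 called and with a median of 1.33. Irf7, the factor that amplifies interferon production, had 120, 123, 86.5, 94.4 and 126 FPKM in biopsies, against 25.1, 30.2, 38.7, 40.0 and 24.4 FPKM in shams. The groups did not overlap, and the change was 1.78 ± 0.18 (limma, adjusted p = 7.3e-11). Stat2 had 24.1, 25.6, 19.7, 22.7 and 28.4 FPKM in biopsies, against 8.72, 8.17, 9.86, 9.70 and 9.34 FPKM in shams, so that it stood above sham at 6 h and below it at 1 h. Its change at 6 h was 1.30 ± 0.12 (limma, adjusted p = 9.7e-12).

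Sensors and PARP genes changed least among the groups, with medians of 0.99 (7 of 7 called) and 0.89 (4 of 4 called). Ifih1, the long double-stranded RNA sensor MDA5, had 22.5, 22.6, 19.4, 18.2 and 23.5 FPKM in biopsies, against 14.1, 12.4, 13.9, 13.4 and 13.1 FPKM in shams. Each biopsy exceeded each sham, by a change of 0.62 ± 0.09 (limma, adjusted p = 4.9e-07). Ddx58, the sensor RIG-I, averaged 11.7 ± 1.11 FPKM in biopsies and 2.85 ± 0.400 FPKM in shams, a change of 1.73 ± 0.10. Parp14, a mono-ADP-ribosyltransferase, had 19.5, 18.9, 13.7, 16.4 and 21.0 FPKM in biopsies, against 6.35, 6.69, 7.81, 7.14 and 5.95 FPKM in shams, and it rose by 1.27 ± 0.14 (limma, adjusted p = 7.3e-10). Parp9 (chr16:35938470-35972621) and Dtx3l (chr16:35926515-35939027) overlap in the annotation, and whether counting used strand is not given, so reads of the pair cannot be told apart where they overlap.

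All 8 genes of the remaining group rose, with a median of 2.30. Bst2, the surface protein tetherin that holds budding virus on the cell, had 82.0, 85.8, 56.8, 65.2 and 79.2 FPKM in biopsies, against 14.7, 15.2, 20.3, 17.8 and 15.3 FPKM in shams. The lowest biopsy was well above the highest sham, and Bst2 rose by 2.08 ± 0.14 (limma, adjusted p = 1.2e-14). Rtp4 averaged 39.2 ± 2.79 FPKM in biopsies and 4.77 ± 1.92 FPKM in shams, a change of 2.86 ± 0.26. Apol9a and Apol9b lie apart on chromosome 15 (chr15:77403789-77411080 and chr15:77729047-77736382) but are near copies, so their changes of 2.54 ± 0.26 and 2.66 ± 0.25 are uncertain.

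Other cells moved in the same libraries. The summed level of 10 neutrophil markers was 375 to 933 FPKM in 6 h biopsies and 0.427 to 2.29 FPKM in shams, where the granule gene Retnlg was listed at 0 in all 5. Epithelial markers summed to 12946 to 14116 FPKM in biopsies and 9337 to 10043 FPKM in shams, and monocyte and macrophage markers to 286 to 444 FPKM in biopsies and 191 to 269 FPKM in shams. Red blood cell genes summed to 172 to 3116 FPKM in biopsies and 20.5 to 73.9 FPKM in shams. Of 9 plasmacytoid dendritic cell markers, Klk1 alone was 631 to 1135 FPKM in biopsies and 1147 to 1566 FPKM in shams, while the other 8 together, led by Ly6d in biopsies, summed to 34.8 to 47.0 FPKM in biopsies and 9.79 to 15.7 FPKM in shams. Among these 8, Siglech was 0.116 to 0.151 FPKM in biopsies and 0.222 to 0.522 FPKM in shams, so the list did not move one way. The part of these cells in the changes of the 39 genes was not tested.

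**Figure D2:**
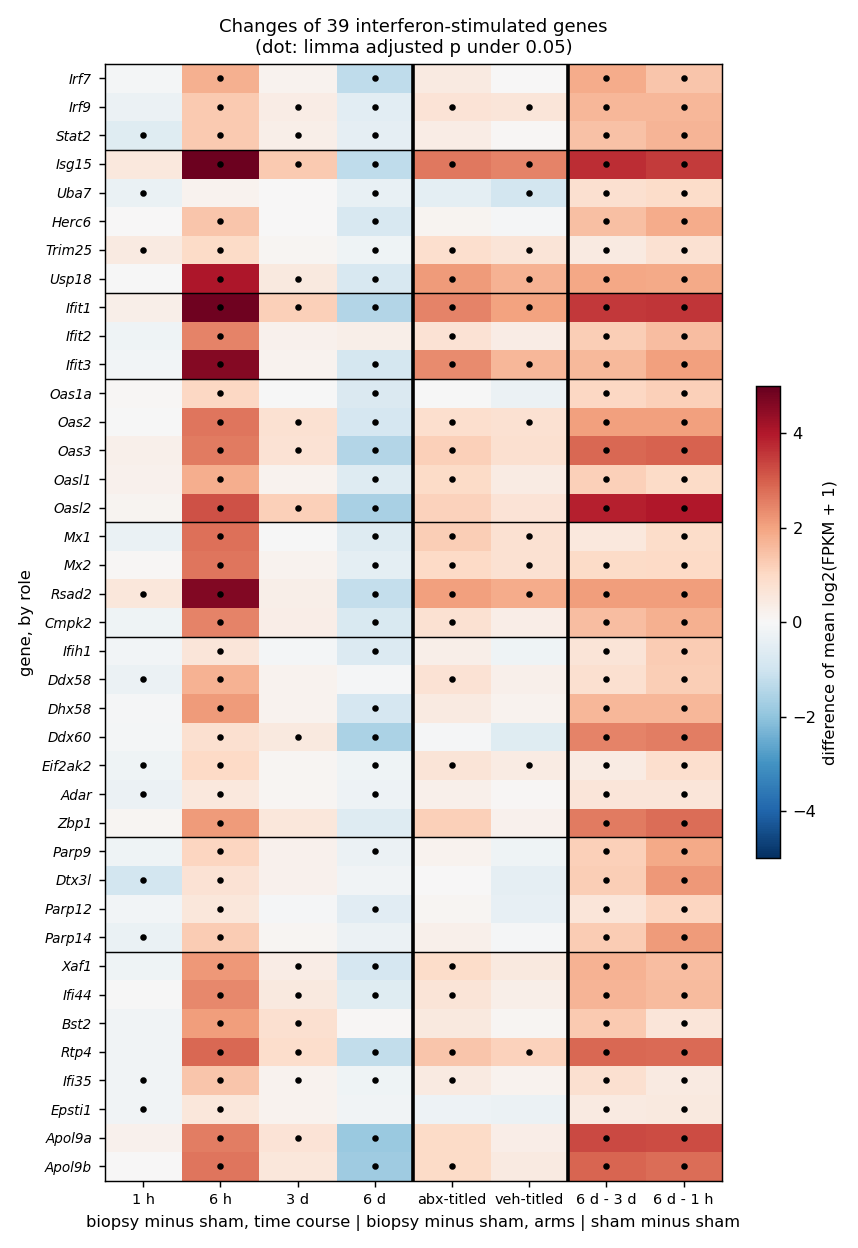
Change in log2(FPKM + 1), biopsy minus sham, of each of the 39 genes (rows, grouped by role) at 1 h, 6 h, 3 d and 6 d and in the abx-titled and veh-titled arms (left and middle columns), and of 6 d shams minus 3 d or 1 h shams (right columns); red is higher, blue is lower, and a dot marks a limma adjusted p under 0.05. At 6 h 38 genes are higher, at 6 d 32 are lower, and the arms hold 21 and 12 higher genes.

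The promoters of the lead genes were read for the core of the interferon-stimulated response element, which is GAAA, then NN (any pair of bases), then GAAA again, on either strand. A match lay within 250 bases before to 50 bases after the start for 14 of the 30 members that have an entry in the promoter table (46.67%), against 3.993% of all 27025 gene symbols in it. The 14 are Apol9a, Apol9b, Bst2, Ddx58, Ddx60, Eif2ak2, Ifih1, Ifit1, Ifit3, Isg15, Oas1a, Oas3, Rsad2 and Stat2. Mx1, Mx2, Dhx58, Parp9, Rtp4, Usp18, Oas2, Zbp1 and Parp14 are not in the table. The median change at 6 h was 2.31 for the 14 genes with a match (0.62 to 4.89) and 1.39 for the 16 without one (0.16 to 3.17), so the ranges overlapped broadly. A match is a description of letters and not a binding site.

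The 4 promoters below belong to the lead genes whose matches all lay within the 140 bases before the start. They show how the element is arranged: overlapping repeats in Isg15 and Bst2, spaced copies in Ifit1 and a single copy in Rsad2. Each is the 140 bases that end just before the start of the gene, in the gene's direction, from RefSeq on GRCm38.p6, with the matches in capitals (TTTC, NN, TTTC is the same element on the other strand). They lie at chr4:156200819-156200958 (minus strand) for Isg15, chr19:34640749-34640888 (plus strand) for Ifit1, chr12:26456453-26456592 (minus strand) for Rsad2 and chr8:71537473-71537612 (minus strand) for Bst2.
Isg15: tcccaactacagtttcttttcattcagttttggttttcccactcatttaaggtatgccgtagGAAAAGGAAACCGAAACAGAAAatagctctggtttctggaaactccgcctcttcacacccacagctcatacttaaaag
Ifit1: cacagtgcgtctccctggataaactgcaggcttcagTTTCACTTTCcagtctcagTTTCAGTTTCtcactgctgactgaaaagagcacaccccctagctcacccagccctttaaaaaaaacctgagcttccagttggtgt
Rsad2: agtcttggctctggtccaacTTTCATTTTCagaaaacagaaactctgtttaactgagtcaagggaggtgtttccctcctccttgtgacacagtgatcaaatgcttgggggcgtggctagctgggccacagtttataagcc
Bst2: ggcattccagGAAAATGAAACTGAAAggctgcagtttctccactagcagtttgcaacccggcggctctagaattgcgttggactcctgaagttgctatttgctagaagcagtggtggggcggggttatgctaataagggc

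From 1 h to 6 h the difference between biopsy and sham moved up for all 39 genes (limma, adjusted over all genes, of which 30% were called up and 16.8% down), by a median of 2.03. From 6 h to 3 d it moved down for 37 genes by a median of 1.61 on the log2 scale (11% of all genes were called down and 41.2% up), the exceptions being Ddx60 and Uba7. The median of all genes in the later step was 0.19, or −0.02 after median-of-ratios scaling. Both steps share the 6 h libraries.

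**Figure D3:**
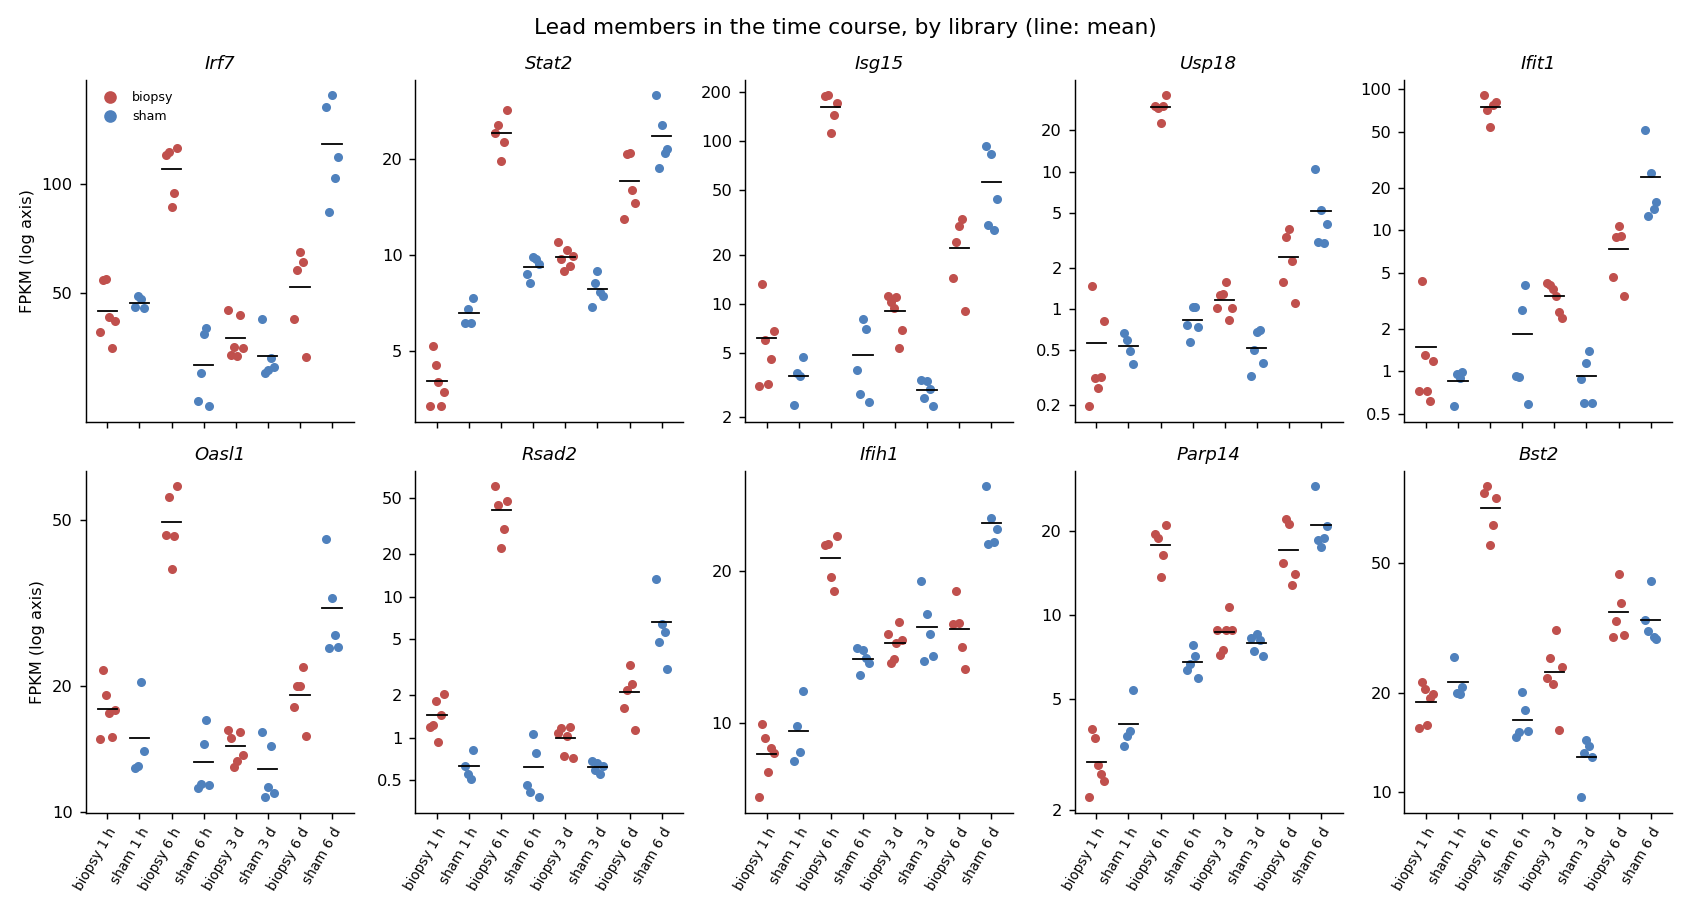
FPKM of the 10 lead genes (log axis) in each time-course library, with biopsy left of sham at 1 h, 6 h, 3 d and 6 d; points are libraries and lines are group means. Isg15 runs from 113 to 192 FPKM in 6 h biopsies and from 28.4 to 93.0 FPKM in 6 d shams, and stays under 14 FPKM in every library of 1 h and 3 d.

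At 3 d 15 of the 39 genes were higher in the wound bed and none lower, with a median change of 0.21, against 0.09 for all genes. Of all genes, 32.1% were called higher and 10.5% lower, so the members' share of 38.5% was near the background. Higher genes made up 75.3% of all calls, but 50.8% after median-of-ratios scaling and 43.6% after quantile normalization. Under median-of-ratios scaling 7 members (17.9%) were called higher, against 19.8% of all genes, and under quantile normalization 5 members (12.8%), against 19.1% of all genes. Bst2, Ifit1, Isg15, Oasl2 and Rtp4 were among them under both. Without biopsy 4 the count was 9.

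Isg15 had 5.36, 9.82 and 11.2 FPKM at the lowest, median and highest in the 6 biopsies at 3 d, against 3.38, 2.63, 3.36, 3.01 and 2.34 FPKM in shams. All biopsies were above all shams, by a change of 1.32 ± 0.32 (limma, adjusted p = 0.0012). Ifit1 had 2.37, 3.62 and 4.25 FPKM at the lowest, median and highest in biopsies, against 0.885, 0.590, 1.15, 1.38 and 0.598 FPKM in shams, again without overlap. It rose by 1.20 ± 0.31 (limma, adjusted p = 0.002). Bst2 had 15.4, 23.2 and 31.1 FPKM at the lowest, median and highest in biopsies, against 9.65, 13.2, 14.4, 13.9 and 12.8 FPKM in shams. Its groups did not overlap either, and it rose by 0.80 ± 0.14 (limma, adjusted p = 1.6e-05).

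Rsad2, among the strongest at 6 h, had 0.714, 1.06 and 1.19 FPKM at the lowest, median and highest in 3 d biopsies, against 0.680, 0.591, 0.658, 0.556 and 0.635 FPKM in shams. Its change of 0.29 ± 0.21 did not pass (limma, adjusted p = 0.29), although every biopsy lay above every sham. Ifit3 changed by 0.18 (limma, adjusted p = 0.59), Irf7 by 0.17 ± 0.17 (limma, adjusted p = 0.44) and Ifih1 by −0.09 ± 0.09 (limma, adjusted p = 0.45). None of the 4 genes of the Mx and Rsad2 group and none of the 4 PARP genes was called, while 6 of the 8 others and 3 of the 5 OAS genes were. Neutrophil markers still summed to 26.1 to 121 FPKM in 3 d biopsies and 0.314 to 0.969 FPKM in shams.

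Sham mucosa itself was not constant. The 39 genes all differed over the sham times in an F test (limma, adjusted over all genes, of which 59% differed), and the 6 d shams stood above the others. Against the 1 h shams all 39 genes were higher at 6 d, with a median change of 1.67, where 17.4% of all genes were called higher and 25.3% lower. Against the 3 d shams 38 genes were higher with a median of 1.52, where 5.41% of all genes were called higher and 5.57% lower. Mx1 was the exception, at 3.38 ± 2.89 FPKM in 6 d shams and 1.71 ± 0.549 FPKM in 3 d shams (SD, n = 5 each; change 0.54 ± 0.23, limma, adjusted p = 0.13).

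By role, the median change of 6 d over 3 d shams was 2.06 for the OAS genes, 1.71 for the others, 1.66 for the transcription factors, 1.64 for the IFIT genes, 1.52 for the ISG15 system, 1.26 for the Mx and Rsad2 group, 1.21 for the PARP genes and 0.79 for the sensors. Isg15 had 93.0, 30.5, 83.5, 28.4 and 44.4 FPKM in 6 d shams, against the 3 d sham values of 2.34 to 3.38 FPKM, and the change was 3.69 ± 0.33 (limma, adjusted p = 3.4e-10). Irf7 had 163, 83.7, 176, 104 and 119 FPKM in 6 d shams, against 42.4, 30.1, 30.6, 33.1 and 31.4 FPKM in 3 d shams. No 6 d sham came down to the 3 d level, and Irf7 rose by 1.87 ± 0.18 (limma, adjusted p = 5.9e-10). Oasl2 averaged 67.3 ± 26.6 FPKM in 6 d shams and 3.42 ± 0.788 FPKM in 3 d shams, a change of 3.88 ± 0.33 and the largest of the 39 in this step.

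The earlier shams differed little among themselves. At 6 h over 1 h, 8 genes were higher and Irf7 was lower, at a median of 0.21 (16.4% of all genes were called higher and 11.7% lower). At 3 d over 6 h only Dtx3l (0.35) and Trim25 (0.39) were called, both higher (6.87% of all genes were called higher and 18.5% lower). At 3 d over 1 h, 8 genes were higher and Bst2, Ifi35 and Irf7 were lower (19.9% and 29% of all genes). The 8 higher at 3 d were Ddx58, Dtx3l, Eif2ak2, Ifih1, Parp12, Parp14, Parp9 and Trim25.

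Some other measures also differed in the 6 d shams. Markers of T and NK cells summed to 3.29 to 10.95 FPKM in 6 d shams and 0.690 to 2.53 FPKM in 3 d shams. All 9 interferon gamma targets tested, none of them a member, were higher in 6 d than in 3 d shams, with a median change of 1.74. The 8 plasmacytoid dendritic cell markers other than Klk1 summed to 11.0 to 42.9 FPKM in 6 d shams (median 14.3) and 7.82 to 13.1 FPKM in 3 d shams (median 11.2). Ly6d led them in 6 d shams, at 0.111 to 29.1 FPKM. Siglech was at 0.231 to 0.724 FPKM in 6 d shams (median 0.275) and 0.177 to 0.525 FPKM in 3 d shams (median 0.349). Klk1 averaged 982 FPKM in 6 d shams and 1138 FPKM in 3 d shams, so this list did not move one way. Relative depth averaged 1.07 in the 6 d shams, the lowest of the groups, and 1.28 to 1.36 in the other time-course groups. Sham 1 was the highest of the 5 for 30 of the 39 genes, and the same count over all genes is not given here. The labels give no processing date or batch, so a shared handling difference and the day of collection cannot be told apart.

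At 6 d the wound bed was below its sham, and 32 of the 39 genes were lower in biopsies. None was higher by limma, and none was higher at an unadjusted p under 0.05, at which 35 were lower. The median change was −0.65, against 0.11 for all genes, of which 34.1% were called higher and 10.2% lower. Higher genes made up 77.0% of all calls, or 50.5% after median-of-ratios scaling and 47.0% after quantile normalization. Under both of these 35 members were lower, where 17.7% and 20.8% of all genes were called lower. Bst2, Ddx58, Dtx3l, Epsti1, Ifit2, Parp14 and Zbp1 were not called. The count of lower genes was 24 without sham 1 and 33 without biopsy 3, which carried B cell markers at 351 FPKM against 4.93 to 7.64 FPKM in the other biopsies.

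Apol9a, a member of the apolipoprotein L family, showed the largest fall, 1.85 ± 0.26 (limma, adjusted p = 8.6e-07), at 2.07, 3.64, 5.10, 5.31 and 1.48 FPKM in 6 d biopsies, against 21.0, 10.7, 22.0, 9.88 and 11.8 FPKM in shams. Ddx60, a helicase that assists RNA sensing, averaged 3.19 ± 1.41 FPKM in biopsies and 11.5 ± 4.14 FPKM in shams, a change of −1.59 ± 0.20 (limma, adjusted p = 7.4e-08). Both are given in full because they led the 6 d comparison while other genes led at 6 h, a choice made after their values were seen.

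Irf7 had 42.5, 57.9, 65.1, 60.9 and 33.3 FPKM in 6 d biopsies, all below the 83.7 to 176 FPKM of the shams, and fell by 1.28 ± 0.18 (limma, adjusted p = 4.1e-07). Ifit1 had 4.63, 8.89, 10.7, 9.12 and 3.40 FPKM in biopsies, against 51.3, 12.6, 25.7, 14.2 and 15.8 FPKM in shams. It too was separated without overlap and fell by 1.48 ± 0.32 (limma, adjusted p = 0.00037). Isg15 had 14.5, 23.8, 30.3, 33.3 and 9.03 FPKM in biopsies, which reached into the sham range of 28.4 to 93.0 FPKM, and fell by 1.27 ± 0.33 (limma, adjusted p = 0.0025).

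Oasl1 had 17.8, 20.0, 20.0, 22.2 and 15.2 FPKM in biopsies, against 45.0, 24.7, 32.6, 26.5 and 24.9 FPKM in shams, and fell by 0.64 ± 0.15 (limma, adjusted p = 0.00066). Ifih1 had 15.6, 18.2, 15.7, 14.1 and 12.8 FPKM in biopsies, against 29.4, 22.6, 25.4, 22.8 and 24.2 FPKM in shams, and fell by 0.67 ± 0.09 (limma, adjusted p = 7.1e-07). Neither gene's groups overlapped. Rsad2 had 1.63, 2.19, 3.28, 2.40 and 1.14 FPKM in biopsies, against 13.4, 4.78, 6.44, 5.58 and 3.06 FPKM in shams, with 1 biopsy above the lowest sham, and fell by 1.20 ± 0.22 (limma, adjusted p = 5e-05).

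Usp18 had 1.57, 3.32, 3.80, 2.25 and 1.10 FPKM in biopsies, against 10.4, 3.08, 5.29, 3.03 and 4.12 FPKM in shams, and fell by 0.81 ± 0.21 (limma, adjusted p = 0.0023). Stat2 had 12.9, 20.7, 20.9, 16.0 and 14.5 FPKM in biopsies, against 31.7, 18.7, 25.6, 20.9 and 21.5 FPKM in shams, and fell by 0.46 ± 0.12 (limma, adjusted p = 0.0021). Both genes' groups overlapped. Parp14 had 15.4, 22.2, 21.2, 12.9 and 14.0 FPKM in biopsies, against 29.0, 18.6, 17.5, 18.9 and 20.9 FPKM in shams, and its change of −0.29 ± 0.14 did not pass (limma, adjusted p = 0.09).

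Bst2 did not follow the others. It had 29.8, 33.3, 46.2, 37.7 and 30.2 FPKM in 6 d biopsies, against 33.5, 30.9, 44.2, 29.7 and 29.3 FPKM in shams. The ranges coincided, and its change was 0.07 ± 0.14 (limma, adjusted p = 0.7). Ifit2 averaged 5.78 ± 1.87 FPKM in biopsies and 4.93 ± 3.01 FPKM in shams, and its change of 0.28 ± 0.20 did not pass (limma, adjusted p = 0.27), while its relatives Ifit1 and Ifit3 were lower. Ifit2 was singled out after its values were seen.

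Against the 3 d shams, a comparison added after seeing the data, the 6 d biopsies were higher for 35 genes and lower for none, with a median change of 0.89 (35.5% of all genes were called higher and 10.9% lower). The genes not called were Eif2ak2, Ifih1, Mx1 and Parp12. Under median-of-ratios scaling and under quantile normalization 30 remained called, where 20.2% and 19.6% of all genes were called higher. By the mean over the 39 genes, the 6 d wound bed (3.41) lay between the 6 d shams (4.14) and the 3 d shams (2.49). From 3 d to 6 d the difference between biopsy and sham at the same time moved down for 24 genes, at a median of −0.82 (0.82% of all genes were called up and 1.02% down). It was 18 without biopsy 5. Oasl2 (−2.81), Ifit1 (−2.68), Isg15 (−2.58) and Apol9a (−2.52) moved most among those named here.

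Beside these changes, T and NK cell markers summed to 7.55 to 31.4 FPKM in 6 d biopsies and 3.29 to 10.95 FPKM in shams. Neutrophil markers summed to 23.9 to 64.8 FPKM in biopsies and 0.405 to 2.34 FPKM in shams, and endothelial markers to 41.9 to 53.0 FPKM in biopsies and 18.4 to 28.0 FPKM in shams. Epithelial markers summed to 6829 to 8705 FPKM in biopsies and 8752 to 9475 FPKM in shams, without overlap. The part of these shifts was not tested. Of the 9 interferon gamma targets tested, Cxcl9 and Cxcl10 were higher and none lower in 6 d biopsies than in 6 d shams, at a median of 0.21.

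The 2 groups with high levels did not have the same profile. In the 6 d shams set against the 6 h biopsies, a comparison added after seeing the data, 7 members were higher, 18 lower and 14 not called, with a median of −0.18, against 0.07 for all genes (38.2% called higher and 28.7% lower). Lower in 6 d shams were Ifit3 (−3.21 ± 0.26), Rsad2 (−2.52 ± 0.22), Usp18 (−2.41 ± 0.21), Mx1 (−1.96), Ifit1 (−1.78) and Isg15 (−1.67). Higher in 6 d shams were Ddx60 (1.42 ± 0.20), Dtx3l (0.88 ± 0.13), Zbp1 (0.82 ± 0.28), Uba7 (0.68 ± 0.13), Herc6 (0.34), Parp9 (0.31) and Ifih1 (0.22).

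Ifit3 averaged 12.8 ± 7.61 FPKM in 6 d shams and 119 ± 31.1 FPKM in 6 h biopsies. Zbp1, a sensor of Z-form nucleic acid that can start necroptosis, averaged 89.7 ± 27.1 FPKM in 6 d shams and 49.9 ± 12.1 FPKM in 6 h biopsies. Uba7, which did not pass the test at 6 h, averaged 28.4 ± 5.44 FPKM in 6 d shams and 17.6 ± 4.60 FPKM in 6 h biopsies. Median-of-ratios scaling gave 4 higher and 19 lower, and quantile normalization gave 6 and 18. Of all genes these scalings called 31.5% and 38.0% higher, and 34.3% and 29.1% lower. The groups differ in time, procedure and depth together, and these cannot be told apart.

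**Figure D4:**
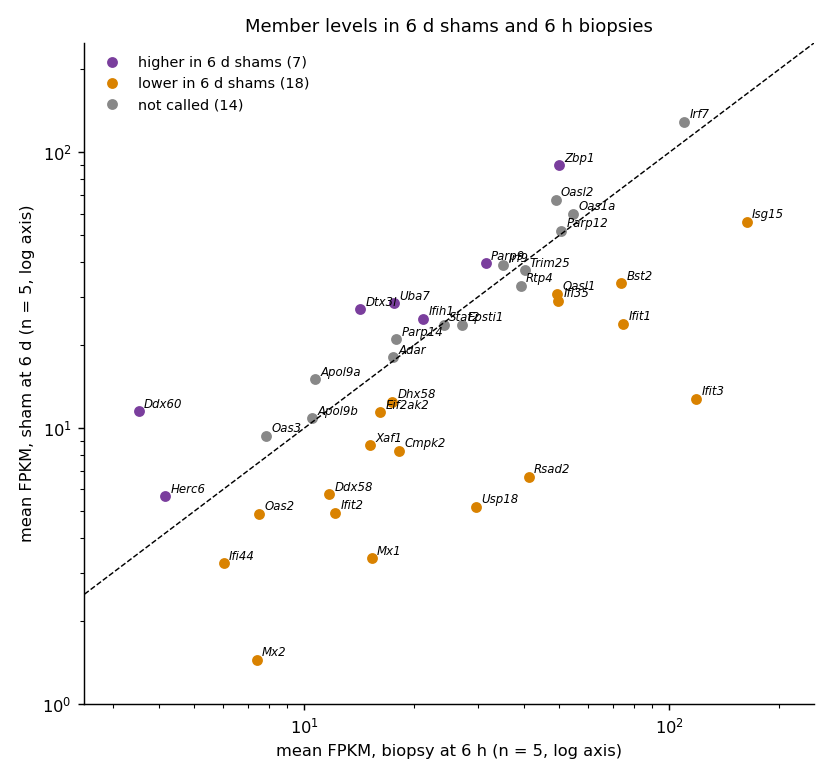
Mean FPKM of each of the 39 genes in 6 d shams (vertical log axis) against 6 h biopsies (horizontal log axis), 5 libraries each; each point is a gene, coloured by its call, and the diagonal marks equal levels. Ifit3, Rsad2 and Usp18 lie below the diagonal and Ddx60, Dtx3l and Zbp1 above it.

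In the second cohort the biopsies at 6 h held fewer members past the test, and in the veh-titled arm the members' share was near that of all genes. In the abx-titled arm 21 of the 39 genes were higher in biopsies and none lower, at a median of 0.74, against −0.12 for all genes (26.5% called higher and 43.9% lower). In the veh-titled arm 12 were higher and Uba7 was lower, at a median of 0.32, against −0.17 for all genes (25.7% called higher and 49% lower). Higher genes made up 37.7% of all calls in the abx-titled arm and 34.4% in the veh-titled arm, or 51.0% and 54.0% after median-of-ratios scaling, under which 24 of 39 members were higher in the abx-titled arm, against 35.1% of all genes, and 16 of 39 in the veh-titled arm, against 38.9%. Apol9a, Apol9b, Ifi44, Ifit2, Mx1, Mx2, Oas2, Oas3 and Rsad2 passed the filter only through the biopsies, and among the other 30 members 13 were higher in the abx-titled arm (43.3%, median 0.46) and 8 in the veh-titled arm (26.7%, median 0.18). The IFIT genes had the largest median change in both arms, 2.35 in the abx-titled arm (3 called) and 1.65 in the veh-titled arm (2 called). They include Ifit2, which passed only through the biopsies and was called in the abx-titled arm alone. Neutrophil markers summed to 188 to 431 FPKM in abx-titled biopsies and 0.283 to 1.68 FPKM in shams, and to 198 to 931 FPKM in veh-titled biopsies and 0.394 to 1.24 FPKM in shams. Red blood cell genes summed to 249.8 to 2102 FPKM in abx-titled biopsies and 15.8 to 44.8 FPKM in shams, and to 137 to 452 FPKM in veh-titled biopsies and 16.4 to 33.7 FPKM in shams. Their part in the members' changes was not tested.

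Shams 2 and 5 of the abx-titled arm stood apart from the other 4. Both were above each of these for 38 of the 39 genes, and their mean of log2(FPKM + 1) over the set was 3.45 and 3.51, against 1.62 to 2.17 in the others. They were picked out after their levels were seen. Without them 36 genes were higher in the abx-titled biopsies and none lower, at a median of 1.07, and the genes not called were Epsti1, Oas1a and Uba7. Since these shams were picked for their high member levels, that choice fixes the direction of the move. The same-numbered biopsies 2 and 5, the highest of their group at 3.21 and 3.70, were kept. The share of all genes called in that fit is not given here, so the 36 are not read against a background. In the same libraries the 13 genes of an interferon gamma list (Ifng, its receptor subunits and targets) averaged 3.31 and 3.70 on the log2 scale, against 1.65 to 2.06 in the other shams, and the T and NK markers summed to 10.6 and 5.43 FPKM, against 0.584 to 4.11 FPKM. Sham 6 of the veh-titled arm was above the other 5 for 38 genes, with a set mean of 2.61 and the interferon gamma list at 1.91, within the range of its group. For how many of all genes these libraries were the highest is not given here. The counts of 38 are therefore not read against a background.

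Isg15 had 34.8, 44.3, 28.9, 49.9 and 21.0 FPKM in abx-titled biopsies, against 0.843, 4.03 and 19.9 FPKM at the lowest, median and highest in the 6 shams. Every biopsy was above every sham, and the change was 2.64 ± 0.52 (limma, adjusted p = 0.00012). In the veh-titled arm it had 9.83, 17.7 and 26.4 FPKM at the lowest, median and highest in biopsies, against 1.45, 1.68 and 8.05 FPKM in shams, a change of 2.49 ± 0.50 (limma, adjusted p = 0.00011). Those groups did not overlap either. Ifit1 had 16.2, 23.1, 14.9, 19.6 and 12.7 FPKM in abx-titled biopsies, against 0.217, 1.80 and 8.67 FPKM at the lowest, median and highest in shams, a change of 2.47 ± 0.51 (limma, adjusted p = 0.00016). In the veh-titled arm it rose by 2.02 ± 0.48 (limma, adjusted p = 0.00071), with the lowest biopsy at 2.27 FPKM and the highest sham at 4.93 FPKM.

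Usp18 had 8.97, 12.2, 7.13, 9.24 and 4.81 FPKM in abx-titled biopsies, against 0.212 FPKM at the lowest and 2.92 FPKM at the highest in shams, a change of 2.11 ± 0.31 (limma, adjusted p = 3e-06). In veh-titled biopsies it had 1.87, 4.01 and 8.38 FPKM at the lowest, median and highest, against 0.404, 0.446 and 1.53 FPKM in shams, a change of 1.75 ± 0.30 (limma, adjusted p = 1.6e-05). In neither arm did the groups overlap. Rsad2 had 9.38, 11.0, 3.94, 13.3 and 2.28 FPKM in abx-titled biopsies, against 0.163, 0.748 and 2.57 FPKM at the lowest, median and highest in shams, and rose by 2.03 ± 0.38 (limma, adjusted p = 5.1e-05). In the veh-titled arm Rsad2 rose by 1.84 ± 0.36 (limma, adjusted p = 8.3e-05), with all biopsies above all shams. Rsad2 passed the filter only through the biopsies, so the filter itself favoured a rise of this gene in both arms.

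Irf7 had 35.6, 27.6, 44.1, 61.3 and 40.2 FPKM in abx-titled biopsies, against 12.9, 22.6 and 85.7 FPKM at the lowest, median and highest in shams. Shams 2 and 5 were above every biopsy at 79.1 and 85.7 FPKM, and the change of 0.44 ± 0.38 did not pass (limma, adjusted p = 0.3). Without them the change was 1.17. Stat2 (0.39 ± 0.26), Bst2 (0.47 ± 0.26), Ifih1 (0.28 ± 0.21) and Parp14 (0.24 ± 0.32) likewise did not pass in this arm. Without those shams their changes were 0.87, 0.89, 0.60 and 0.87. Those shams were picked for their high member levels, which fixes the direction of these moves. The fit without them therefore cannot decide whether these genes responded. In the veh-titled arm Irf7 changed by 0.03 ± 0.36 (limma, adjusted p = 0.94), with 14.9 to 24.5 FPKM in biopsies and 16.3 to 29.9 FPKM in shams. Oasl1 rose by 0.96 ± 0.23 in the abx-titled arm (limma, adjusted p = 0.00099), and its change of 0.41 ± 0.22 in the veh-titled arm did not pass (limma, adjusted p = 0.1).

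Uba7 had 3.04 to 5.73 FPKM in veh-titled biopsies, against 7.89 to 10.1 FPKM in shams, and was the only member called lower at 6 h in any cohort. It fell by 0.91 ± 0.29 (limma, adjusted p = 0.0077), a call that was kept under median-of-ratios scaling and quantile normalization. The biopsy response itself did not differ between the arms by limma for any of the 39 genes, and none differed at an unadjusted p under 0.05, although the abx-titled response was the larger for all 39 by a median of 0.38 (2.62% of all genes were called larger and 0.684% smaller). Without shams 2 and 5, 17 genes differed, in the direction which that choice fixes. Abx-titled biopsies 2 and 5 and sham 6 of the veh-titled arm were kept, and the share of all genes in that fit is not given here. Biopsies alone were higher in the abx-titled than in the veh-titled arm for 8 genes, at a median of 0.80 (7.82% of all genes were called higher and 7.22% lower), and 30 were higher at an unadjusted p under 0.05. These were Apol9b, Bst2, Ifi35, Ifi44, Oas1a, Oasl1, Parp12 and Xaf1, and the count was 2 without abx-titled biopsy 5, 2 to 12 over all fits with a library left out and 28 in a fit of the groups compared alone. Shams alone gave no call by limma, with 3 genes at an unadjusted p under 0.05 (3.38% of all genes were called higher and 9.2% lower).

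**Figure D5:**
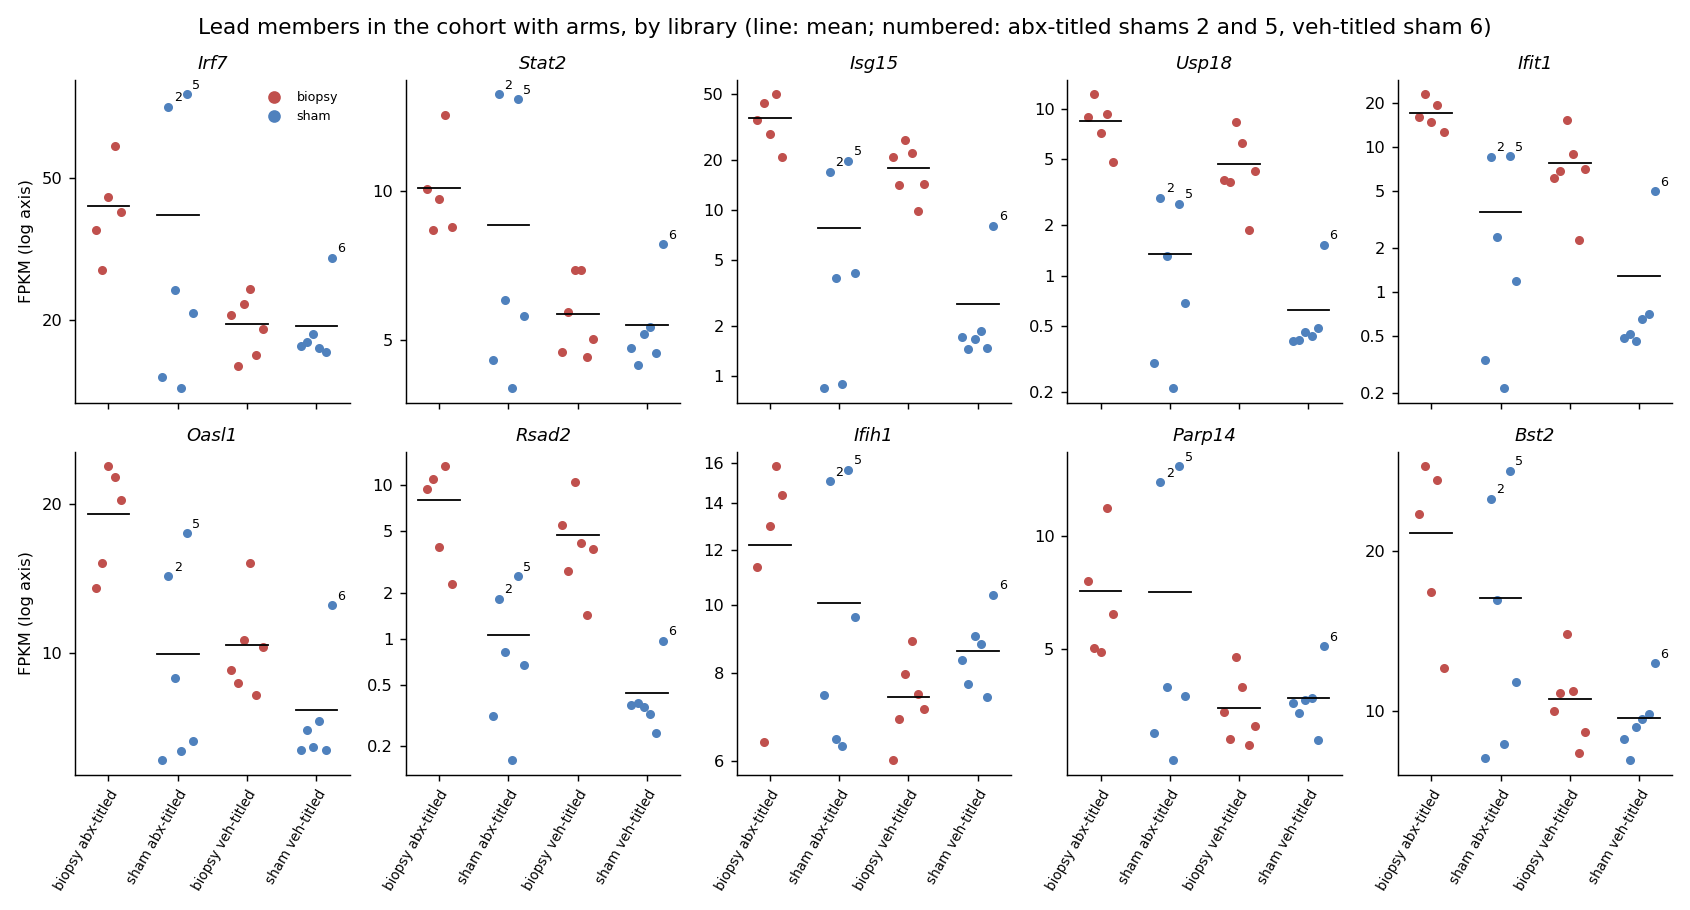
FPKM of the 10 lead genes (log axis) in each library of the second cohort, with biopsy left of sham in both titled arms; points are libraries, lines are group means, and numbers mark abx-titled shams 2 and 5 and veh-titled sham 6. Shams 2 and 5 of the abx-titled arm reach 79.1 and 85.7 FPKM for Irf7, above all 5 biopsies of that arm.

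None of 20 interferon ligand genes passed the filter. Ifnb1, interferon beta, was listed at 0 in every sham library and in the 3 d and 6 d biopsies, and at 0.0402 to 0.145 FPKM in all 5 biopsies at 6 h, a level so low that it is given without a test. In the 1 h biopsies Ifnb1 was at 0 in 4 of 6, and it reached 0.0717 FPKM in abx-titled and 0.0568 FPKM in veh-titled biopsies. Ifnb1 was singled out after its values were seen. Of the 23 pathway genes tested, 4 were higher and 12 lower in biopsies at 1 h, 10 and 6 at 6 h, 8 and 1 at 3 d, and 8 and 2 at 6 d, at medians of −0.23, 0.05, 0.14 and 0.17. Of all genes, 9.38% were called higher and 45% lower at 1 h, and 24.3% and 43.2% at 6 h. At 3 d these shares were 32.1% and 10.5%, and at 6 d 34.1% and 10.2%. The lower count at 1 h and the higher counts at 3 d and 6 d were thus near the background. In the arms 8 were higher and 9 lower in abx-titled biopsies, where 26.5% and 43.9% of all genes were called. In veh-titled biopsies 8 were higher and 10 lower, where 25.7% and 49% of all genes were called. In 6 d over 1 h shams 10 were higher and 1 lower, where 17.4% and 25.3% of all genes were called. In 6 d over 3 d shams 7 were higher and none lower, where 5.41% and 5.57% of all genes were called.

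Among receptor subunits, Ifnar2 was higher in biopsies at 6 h (0.40 ± 0.13; limma, adjusted p = 0.0056), 3 d (0.73 ± 0.12; adjusted p = 1e-05) and 6 d (0.60 ± 0.13; adjusted p = 0.00028). Ifnar1 fell by 0.46 ± 0.05 at 1 h (limma, adjusted p = 1.9e-09), and was higher by 0.19 ± 0.05 at 3 d and 0.34 ± 0.05 at 6 d. The type III receptor subunit Ifnlr1 was higher by 0.24 ± 0.09 at 6 h (limma, adjusted p = 0.018), and its partner Il10rb fell by 0.54 ± 0.07 at 1 h (limma, adjusted p = 1.1e-07). The falls of Ifnar1 and Il10rb are read against a median of −0.18 for all genes at 1 h, of which 45% were called lower. Their changes after median-of-ratios scaling are not given here. Ifnar1 and Ifnar2 changed by 0.02 and −0.05 in 6 d over 1 h shams, where the members were at their highest sham level, and did not pass.

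Socs1, which restrains signalling by interferon receptors, was already higher at 1 h: it averaged 5.94 ± 1.15 FPKM in biopsies (n = 6) and 1.72 ± 0.485 FPKM in shams (n = 4) at 1 h. Its change was 1.35 ± 0.18 at 1 h (limma, adjusted p = 4.6e-08) and 1.92 ± 0.17 at 6 h (limma, adjusted p = 7.9e-12).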

How the data were processed

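Poly(A) RNA of mouse colon was isolated with RNeasy Mini and made into libraries with the TotalScript kit, per the labels' protocols. The authors deposited 1 FPKM value per gene symbol and library; STAR, Cufflinks and mm10 are named in the submitters' processing notes, without versions. Neither annotation nor strand setting is stated. From these values log2(FPKM + 1) was taken. The filter kept genes at 1 FPKM or more in 4 or more libraries, 13285 for the time course and 11849 for the arms. Group means were estimated in limma 3.58.1 under R 4.3.3, with a mean-variance trend and 33 and 19 residual degrees of freedom. P-values were adjusted by Benjamini-Hochberg over all tested genes of a comparison. The procedure was tested on simulated data. Counting precision is unknown, since FPKM keep no read totals. Over all tested genes, deviations of same-numbered libraries from their group means correlated at −0.28 to 0.25, so the numbers were not used as pairs. Such correlations cannot exclude pairing. By the mean over the 39 members, numbers 5 and 2 ranked highest in both abx-titled biopsies (3.70 and 3.21) and shams (3.51 and 3.45). Veh-titled sham 6 (2.61) was the highest of its group, while biopsy 6 (2.33) was not.

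The members, the lists and the comparisons were chosen with earlier results of these data known. All 39 members were accounted for by role. Library values are given for 10 leads (Irf7, Stat2, Isg15, Usp18, Ifit1, Oasl1, Rsad2, Ifih1, Parp14 and Bst2). For another member they are given only where its own values, once seen, singled it out. Promoters came from RefSeq tables of GRCm38.p6; those of Stat2 and Ifih1, the other leads with a match, were not printed because a match lay outside the stretch shown. Alternatives were array weights, median-of-ratios scaling, quantile normalization, no filter, a filter of 5 FPKM, a pseudocount of 0.1, only the groups compared, a replicate block and leaving out each library, and 3 were added after seeing the data.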

Additional observations from a re-analysis of the deposited data

Results flagged for a closer look

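Single libraries lay far from the rest of their group in 10 of 120 groups of lead-gene values, where chance gives about 1 in 20. In sham 6 of the veh-titled arm this held for Irf7 (29.9 FPKM), Stat2 (7.80 FPKM), Isg15 (8.05 FPKM), Usp18 (1.53 FPKM), Ifit1 (4.93 FPKM), Oasl1 (12.5 FPKM) and Rsad2 (0.974 FPKM). In sham 1 at 3 d Irf7 was high (42.4 FPKM) and Bst2 low (9.65 FPKM), and in biopsy 2 at 1 h Ifit1 was high (4.36 FPKM).

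The difference between biopsy and sham itself changed between neighbouring times for nearly all lead genes (limma interaction, adjusted over all genes). From 1 h to 6 h it changed by 1.87 for Irf7, 1.90 for Stat2, 4.37 for Isg15, 4.08 for Usp18, 4.58 for Ifit1, 1.60 for Oasl1, 4.07 for Rsad2, 0.76 for Ifih1, 1.62 for Parp14 and 2.27 for Bst2. From 6 h to 3 d it changed by −1.61 for Irf7, −1.0 for Stat2, −3.57 for Isg15, −3.55 for Usp18, −3.67 for Ifit1, −1.65 for Oasl1, −4.36 for Rsad2, −0.71 for Ifih1, −1.16 for Parp14 and −1.27 for Bst2. From 3 d to 6 d it changed by −1.45 for Irf7, −0.76 for Stat2, −2.58 for Isg15, −1.32 for Usp18, −2.68 for Ifit1, −0.81 for Oasl1, −1.48 for Rsad2, −0.58 for Ifih1 and −0.73 for Bst2.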

How the results depend on the processing

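Of 80 results for lead genes none changed sign under an alternative run where the main or the alternative fit called the gene. On the same side of the threshold were 1416 values, while 44 lost and 30 gained the call. Small changes that were not called could change sign, as for Usp18 at 1 h (−0.17 to 0.04 with 1 library left out). Of the counts of called members, 489 values stayed within 1.5 times and 45 did not. At 1 h the 2 higher calls were 1 with array weights, without the filter and with the replicate block, and 1 to 2 with a library left out; the 9 lower calls were 2 with median-of-ratios scaling, 2 with quantile normalization, 5 without the filter and 4 to 11 with a library left out. At 3 d the 15 higher calls were 7 and 5 under these scalings and 9 to 16 with a library left out. At 6 d the 0 higher calls were 0 to 1 (1 without sham 1). In the abx-titled arm the 21 higher calls were 36 without shams 2 and 5 and 16 to 29 with 1 library left out, and the 0 lower calls were 2 with the block. In the veh-titled arm the 1 lower call was 5 with array weights, 7 with only the groups compared and 3 with the block. The 24 changes of effect from 3 d to 6 d were 15 with the block and 18 to 25 with a library left out. The 0 differences of response between arms were 3 with array weights and 17 without shams 2 and 5. Between the arms' biopsies the 8 calls were 28 with array weights, 28 with only the groups compared, 4 without the filter, 3 with the block and 2 to 12 with a library left out (4 without abx-titled biopsy 4, 2 without 5; 4 without veh-titled biopsies 1 and 5, 5 without 2 and 6). Between the arms' shams the 0 calls were 1 with quantile normalization and 0 to 2 with a library left out, and the 2 calls of 3 d over 6 h shams were 1 without the filter and 1 to 2 with a library left out. The cause of these moves was not tested. The block on replicate number moved no other count by over 1.5 times. The labels do not say whether the numbers pair the libraries. The 6 h count was 38 to 39 and the 6 d lower count 24 to 34 with a library left out.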

Other observations

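A wider list of 30 tested interferon-stimulated genes outside the 39 gave 29 higher and none lower in 6 h biopsies against shams, with a median change of 1.62, and only Oas1c was not called. Of all genes, 24.3% were called higher and 43.2% lower there. At 6 d the wider list was divided, with 4 higher and 10 lower in biopsies at a median of −0.16, where 34.1% and 10.2% of all genes were called. The higher ones were Ifi204, Ifitm3 (0.73), Isg20 and Slfn1 (0.46), and the lower ones included Oas1g (−1.0), Oas1b (−0.73), Trim30a (−0.72), Sp100 (−0.66) and Lgals3bp (−0.58). In 6 d over 3 d shams 27 of the 30 were higher at a median of 0.82, against 5.41% of all genes. In 6 d over 1 h shams 22 were higher and Isg20 (−0.70) was lower, where 17.4% and 25.3% of all genes were called. In the arms 13 were higher and 1 lower in abx-titled biopsies, where 26.5% and 43.9% of all genes were called. In veh-titled biopsies 12 were higher and 5 lower, where 25.7% and 49% of all genes were called.

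Of 9 interferon gamma targets tested, Cxcl10, Gbp2, Gbp4, Gbp5 and Socs1 were higher and none lower in 6 h biopsies than in 6 h shams, at a median of 0.60, while the receptor subunits Ifngr1 (−0.43) and Ifngr2 (−0.28) were lower. Over the 13 genes of the list, with the receptor subunits and 2 genes that did not pass the filter, the mean of log2(FPKM + 1) was 3.81 in 6 d biopsies (3.43 to 4.15) and 3.61 in 6 d shams (3.19 to 3.80), against 2.25 in 3 d shams. Ifng itself was listed at up to 0.321 FPKM, with medians of 0.309 FPKM in 6 d biopsies and 0.117 FPKM in 6 d shams, and did not pass the filter.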
